A study of Mus musculus with 79 samples.

Results

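The genes described here are the clustered histone genes, the multicopy genes of the Hist1 to Hist4 clusters. They were taken as every symbol of the deposited table that began with HIST1H, HIST2H, HIST3H or HIST4H and that reached 1 TPM (a level scaled for transcript length and library size) in at least 4 of the 78 libraries used. The table held 20465 gene symbols, of which 68 were clustered histone genes, and 61 of these passed. They comprised 5 genes for the linker histone H1, 18 for H2A, 14 for H2B, 11 for H3 and 13 for H4. On mm10, 50 genes of the Hist1 name lay on chromosome 13, 8 of Hist2 on chromosome 3, 2 of Hist3 on chromosome 11 and 1, Hist4h4, on chromosome 6. Of the 50, the pseudogene Hist1h2al (51202727-51203065) lay far from the others, the last of which, Hist1h2aa, ended at 23934851. Just inside the threshold were Hist2h2ab, at 1 TPM or more in 6 libraries, and Hist1h2bp, in 9. Just outside were Hist2h2aa2, Hist2h3c1 and Hist1h2be, each in 1 library. The remaining 4 symbols that did not pass were Hist1h1t, Hist1h2ba, Hist1h2bq and Hist1h2br.

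The libraries came from cultured mouse T helper 17 cells, which carried CFSE, a dye diluted at each division. Pathogenic cells (Th17p) received IL1b, IL6 and IL23, and non-pathogenic cells (Th17n) received TGFb and IL6, so IL6 and the dye were common to every group. EGCG, epigallocatechin gallate from green tea, was added at 20 µM and compared with its solvent DMSO. DHEA was added at 50 µM and compared with its solvent Methanol. RNA was taken from unsorted cells (Total), which include the divided ones, and from cells sorted after exactly 1 division (Div.1). These 2 cell types, 4 treatments and 2 sorts gave 16 groups of 5 libraries, described as 5 mice per condition, except that the Th17p DMSO Div.1 and Th17n DMSO Div.1 groups had 4. The library of well A4, whose label broke the layout of its row, was left out. Strain, sex and age of the mice, and whether 1 mouse supplied several groups, are not given in the sources used here. Replicates are named below by the well column in their titles, 1 to 5 for DMSO and EGCG and 6 to 10 for Methanol and DHEA. The libraries used of each group lay in a single well row, and a compound and its solvent lay in different rows. So did the sorts and the cell types. An effect of well row therefore cannot be told apart from compound, sort or cell type.

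Histones are the proteins around which DNA is wound. Pairs of H2A, H2B, H3 and H4 form the nucleosome core, and H1 binds the linker DNA between nucleosomes. The clustered genes are transcribed mainly in S phase, when replicated DNA needs new histones. Their mRNAs have no introns and, as a rule, no poly(A) tail: the 3′ end is made by a cut just after a short stem-loop, which is bound by the stem-loop binding protein, Slbp. Some are also polyadenylated, at sites beyond the stem-loop. The libraries were made by capture of poly(A) tails, so the values describe the part of histone RNA that such a capture retains, not all histone mRNA.

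The stem-loop was found in the longest coding transcript model of 41 of the 61 genes (GENCODE models on mm10, which may not be those the authors used). It was searched as a perfect stem of 6 bases around a loop of 4, and it began 21 to 58 bases after the stop codon. Of the other 20 models, 12 stopped at the stop codon, 7 had a 3′ untranslated end without this stem-loop and 1, the processed pseudogene Hist1h2al, had no coding model. Examples are shown because the stem is the element by which these mRNAs are recognised. Capitals mark the stem, and lower case the flanks and the loop:
Hist1h1e: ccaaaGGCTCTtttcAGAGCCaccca
Hist1h2ag: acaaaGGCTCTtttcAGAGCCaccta
Hist1h2bj: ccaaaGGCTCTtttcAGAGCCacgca
Hist1h3c: aaaaaGGCTCTtttaAGAGCCaccta
Hist1h4d: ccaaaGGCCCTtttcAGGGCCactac
Hist1h4b: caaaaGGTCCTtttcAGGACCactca
Hist3h2a: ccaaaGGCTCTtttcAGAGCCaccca
All 29 stem-loops of H1, H2A, H2B and H3 genes had the stem GGCTCT. The H4 genes had GGCCCT in 10 models and GGTCCT in 2. The loop was TTTC in 31, TTTA in 5 and TTTT in 3, and TCTC and TCTT in 1 each. In 20 models the transcript ended within 60 bases after the stem-loop, and in 21 it ran further.

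The members with the highest levels, Hist1h2ap (chr13:21833026-21833507) and Hist1h2ao (chr13:21810465-21810944), carried a run of 12 encoded A directly before the stem-loop. Capitals mark the run, and the stem-loop follows with no base between:
Hist1h2ap: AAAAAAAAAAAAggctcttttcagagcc
Hist1h2ao: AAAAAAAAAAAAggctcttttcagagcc
Hist1h2ac held a run of 15 A further down its 2482-base model. The longest run of A in the other members with a coding model was 2 to 8 bases. Among all 10257 genes tested that had a coding model, 9.88% held a run of at least 12, and among the 599 with a transcript of at most 1000 bases 2.67% did. Whether the run takes part in the levels below was not tested.

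The H2A and H2B genes are often arranged as neighbours transcribed away from each other. With a limit of 1000 bases between starts there were 10 such pairs among the 61 members, with 175 to 659 bases between them. Of these 9 joined an H2A with an H2B gene, and the pair 659 bases apart joined an H2B with an H3 gene. Hist1h2bq and Hist1h2br, the H2B neighbours of Hist1h2ao and Hist1h2ap, did not pass the threshold and were not paired. Hist1h2ag (minus strand, starting at 22042944 on chromosome 13) and Hist1h2bj (plus strand, starting at 22043214) were 269 bases apart. The 250 bases before the start of Hist1h2ag, chr13:22042950-22043199 on the minus strand (RefSeq, GRCm38.p6), are shown because they lie between these genes, which were both called, in the same direction, in 3 of the 8 compound comparisons below. Capitals mark CCAAT or its reverse complement ATTGG:
Hist1h2ag promoter: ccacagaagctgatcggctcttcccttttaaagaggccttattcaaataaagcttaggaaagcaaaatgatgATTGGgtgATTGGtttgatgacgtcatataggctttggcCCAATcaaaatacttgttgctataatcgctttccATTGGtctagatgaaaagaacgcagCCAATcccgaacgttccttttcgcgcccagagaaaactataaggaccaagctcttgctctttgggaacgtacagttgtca
The 5 matches began at -178, -170, -139, -105 and -80 from the start. Promoters of 55 of the 61 members were in the RefSeq table, and the letters were searched on both strands. CCAAT was in 45 of 55 (81.8%) and in 34.5% of all 27025 promoters, and at least 2 copies were in 70.9% and 10.5%. It was in every H1, H2A and H2B promoter in the table, in 8 of 9 for H3 and in 3 of 12 for H4. TATAAA was in 50.9% of the members' promoters and 13% of all, and ATTTGCAT in 21.8% and 1.61%. The 12 with ATTTGCAT were 7 H2A and 5 H2B genes. The windows of paired neighbours overlap, so some letters count for both. These are matches of letters and not sites shown to be used.

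Histone genes are alike in sequence, and reads that match several of them are divided by the quantifier. The share of a gene's 31-base words found in no other transcript was 6.6% for Hist1h2ap and 6.2% for Hist1h2ao, which share most of their words with each other. It was above 50% in 23 of the 61 members. The levels of the other 38 are therefore uncertain one by one. Sums are less affected where words are shared between members, but not where they are shared with other genes. Hist2h3c2, Hist2h3b and Hist2h2aa1 share 64.2%, 80.6% and 89.7% of their words with Gm20634, which is not a member. Whether reads of Gm20634 take part in their levels was not tested. TPM keep no read counts, so the depth of the libraries is unknown and no counting interval can be given. Between 9338 and 9845 genes reached 1 TPM per library, and pairs of libraries within a group correlated at 0.989 to 0.997 across genes.

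The labels were checked against markers of cell types. The T cell genes Cd3e, Cd3g and Cd4 were present in every library, with Cd4 between 67.9 and 185.64 TPM, and so was Il17f (96.66 to 8147.05), a cytokine of Th17 cells. Of other cells, the summed markers were at most 5.11 TPM for B cells and 1.69 for myeloid cells in any library, with Ms4a1 at most 0.21 and Lyz2 at most 0.31. Erythroid markers reached 30.01 TPM in 1 Th17n EGCG Total library. The summed CD8 T and NK cell markers ran from 10.14 to 47.15 TPM, mostly Cd8b1, Klrd1 and Nkg7, with Cd8a at most 0.56 and Gzma and Ncr1 at medians of 0. They were at 21.16 to 33.88 with EGCG and 10.14 to 15.31 with DMSO in Th17p Total cells, and at 24.66 to 35.05 and 15.64 to 21.65 in Th17p Div.1 cells. In Th17n Div.1 cells the ranges overlapped, 15.83 to 22.89 and 15.42 to 27.59. With Methanol and DHEA they were at 14.96 to 24.19 and 24.09 to 34.59 in Th17p Total cells and at 18.05 to 26.36 and 32.74 to 47.15 in Th17n Total cells. Their part in the results was not tested. Foxp3, the factor of regulatory T cells, was at 0 to 156.89 TPM, and the summed Treg markers were above 19 TPM in every Th17n library and below 2 in every Th17p library.

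The 8 libraries of well column 10 stood apart, all of them Methanol or DHEA libraries. In each of their groups they had the lowest summed level of the 61 histone genes, at 0.44 to 0.85 of the median of the other 4 libraries. In Th17n Methanol Div.1 cells the sum was 1473 TPM in that library and 3232 to 3494 in the others. Without Hist1h2ao and Hist1h2ap the ratios were 0.49 to 0.83. The summed DNA replication genes of the same libraries were at 1.00 to 1.10 of the median of the others, and the summed G2 and M phase genes at 0.98 to 1.10. Of all genes tested 114 were lowest in column 10 in all 8 groups, 6 of them histone genes (Hist1h2ao, Hist2h3c2, Hist1h2bj, Hist1h2ab, Hist1h4d and Hist2h4). The 106 of them with a transcript model had a median length of 792 bases, against 3000 over all 10257 genes and 532 over the histone genes. No library of an EGCG or DMSO group is in column 10. Column 1, which holds DMSO and EGCG libraries, had more genes that were lowest in all 8 of its groups, 217, with 0 histone genes among them and a median length of 2681 bases. In each other column the number was 0 to 10. Comparisons that use Methanol or DHEA groups are given below with and without that column where it matters.

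The levels differed by more than 3 orders of magnitude between members. Hist1h2ap had a mean of 966 TPM over the 78 libraries (range 417.54 to 1476.7) and Hist1h2ao 861 (472 to 1187), and these 2 H2A genes made up most of the histone RNA captured. They were followed by the H3 genes Hist2h3c2 (123 TPM) and Hist2h3b (64.5), the H2A gene Hist1h2ag (79.6) and the H2B gene Hist1h2bj (58.7). Hist1h4i, at 47.3, was the highest H4 gene and Hist1h1e, at 17.5, the highest H1 gene. In all, 23 members had a mean of at least 10 TPM. The others of these were Hist1h2bk (38.3), Hist1h3c (35.5), Hist1h2ab (34.2), Hist1h4d (31.6), Hist1h3i (24.9), Hist1h2ai (19.2), Hist1h2ak (15.1), Hist1h2ae (14.8), Hist1h4n (13.8), Hist1h4c (12.7), Hist2h4 (12.4), Hist1h2bn (12), Hist1h3h (11.2), Hist1h1b (10.4) and Hist1h3e (10). The remaining 38 were below, down to Hist2h2ab at 0.29. Hist1h2ao was above the next gene, Hist2h3c2, in every library, and the other neighbours in this order overlapped in range, as the plot of mean levels shows.

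**Figure D1:**
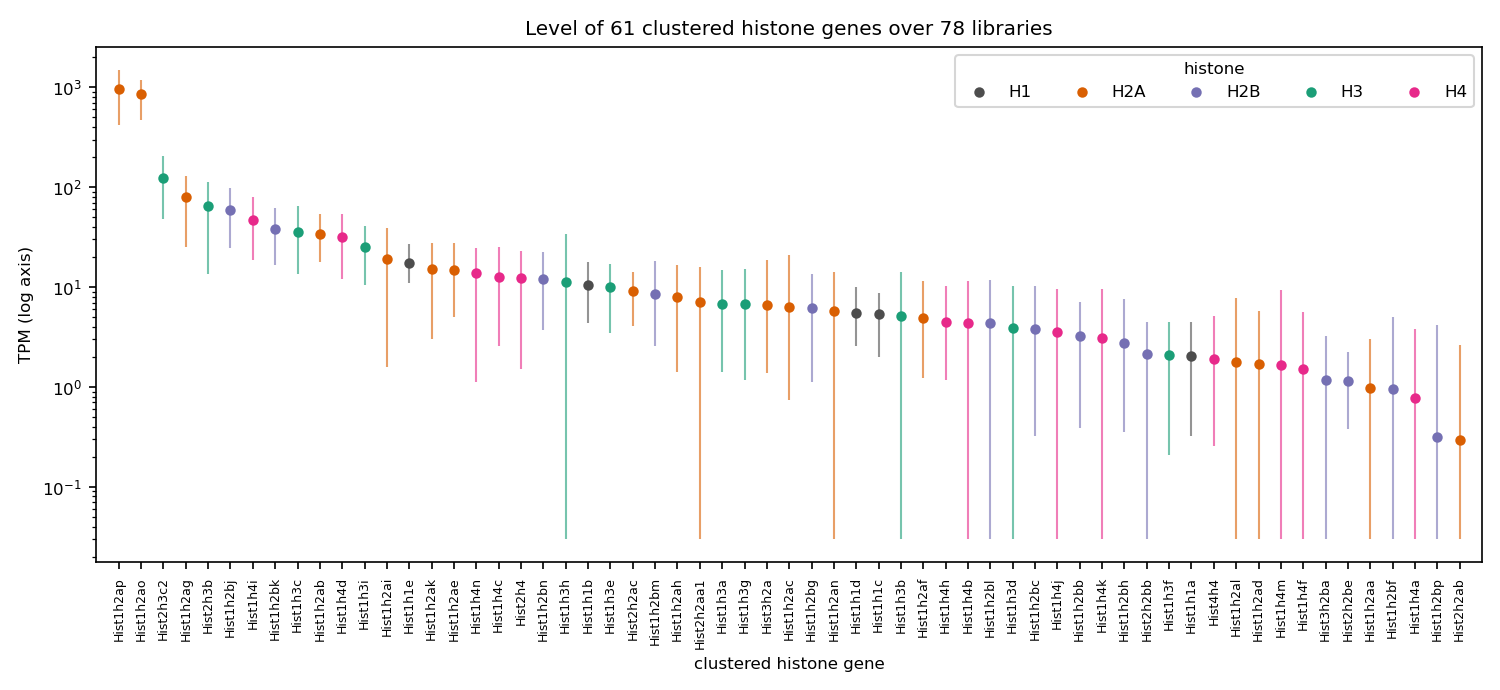
Mean TPM of the 61 clustered histone genes over 78 libraries (log axis), coloured by histone type, with lines from the lowest to the highest library. Lines that reach the lower edge include libraries in which the gene was listed at or near 0, and Hist1h2ap and Hist1h2ao stand apart at 966 and 861 TPM.

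Over all 61 genes the summed level was 2660 ± 475 TPM (SD, n = 78). In Th17p Total cells it was 2761 to 3131 TPM with DMSO and 2039 to 2526 with EGCG, and in Th17p Div.1 cells 2809 to 3028 and 2239 to 2470. In both sorts the EGCG and DMSO libraries did not overlap. In Th17n Div.1 cells the sum was 3371 to 3860 with DMSO and 2553 to 2926 with EGCG, again without overlap. In Th17n Total cells it was 2475 to 3087 and 2679 to 3279, and the groups overlapped. Without Hist1h2ao and Hist1h2ap the sums with DMSO and EGCG were 808 ± 58 and 657 ± 40 (SD, n = 5) in Th17p Total, 989 ± 25.3 (n = 4) and 627 ± 41.9 (n = 5) in Th17p Div.1, 857 ± 65 and 824 ± 89.8 (n = 5) in Th17n Total, and 1137 ± 40.2 (n = 4) and 751 ± 26.6 (n = 5) in Th17n Div.1. The members were chosen with results of these data known, so the sums carry no test.

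**Figure D2:**
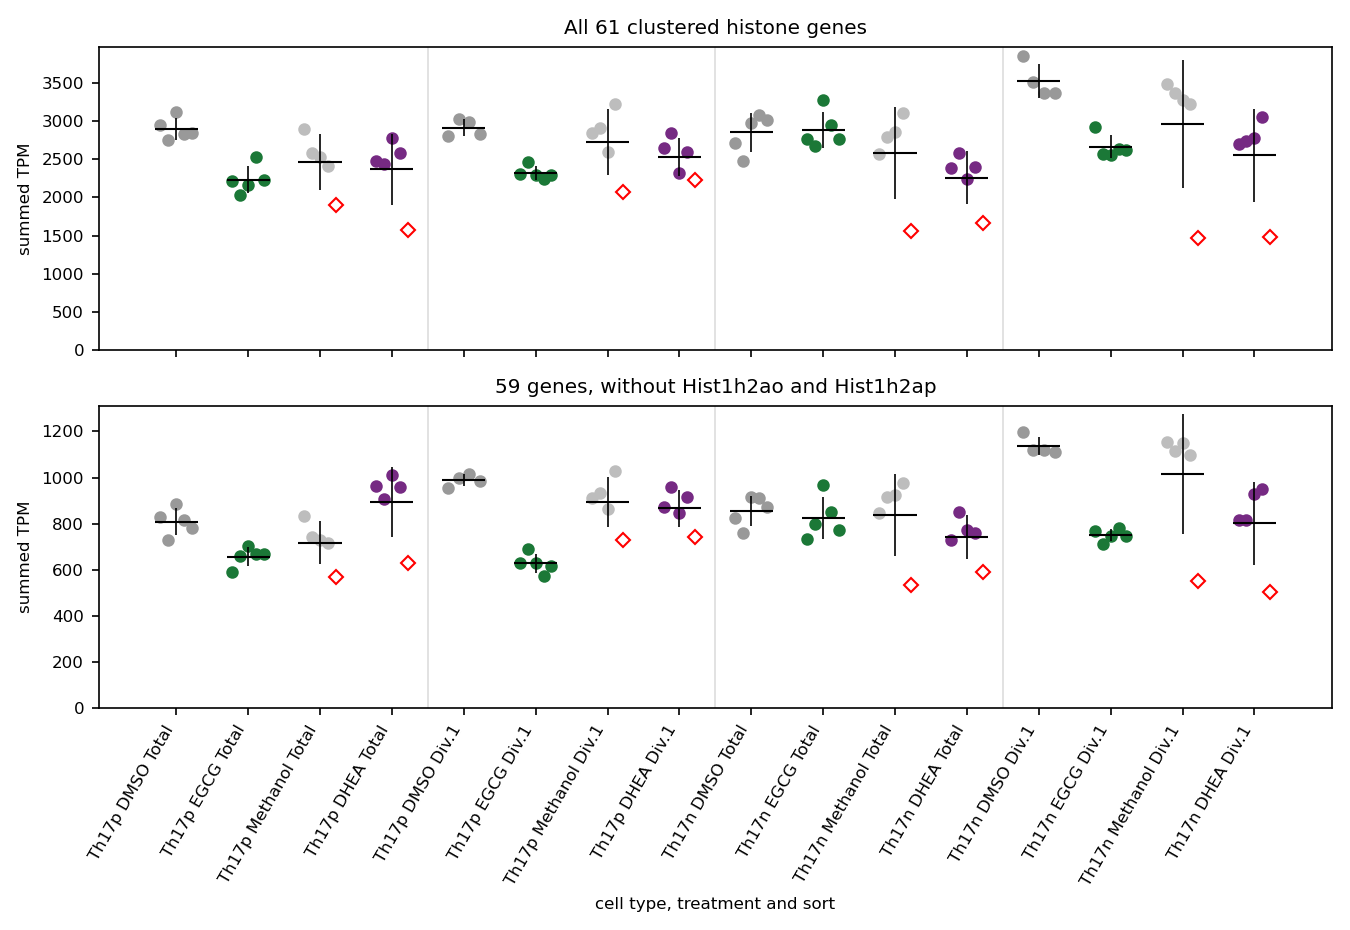
Summed TPM of the histone genes in every library of the 16 groups, for all 61 genes and for the 59 without Hist1h2ao and Hist1h2ap. Points are libraries and bars the mean ± SD; dark grey marks DMSO, light grey Methanol, green EGCG and purple DHEA, and open red diamonds mark well column 10, the lowest library in each of its 8 groups.

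Differences between groups were tested with limma on log2(TPM + 1) for all 10672 genes that passed the same filter, and a gene was called at a Benjamini-Hochberg adjusted p under 0.05. Changes are differences of group means on that scale, given with their standard error, and they understate the change of genes at low TPM. Adjusted p-values below are of this kind. In these bulk samples fewer cells in S phase and less histone RNA per cell cannot be told apart. Neither can be told apart from a smaller part of the histone RNA retained by the poly(A) capture.

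Many histone genes were at lower levels with EGCG in cells that had divided once. In Th17p Div.1 cells 20 of 61 were lower, against 11.9% of all genes, and 1, Hist3h2a, was higher, against 33.7%. In Th17n Div.1 cells 16 were lower, against 6.77% of all genes, and 1, Hist1h2bc, was higher, against 28.1%. The median change of the 61 was -0.51 in Th17p and -0.45 in Th17n, and over all genes 0.12 and 0.11. Rescaling the libraries by their median ratio shifted the median of all genes by -0.10 and -0.11. The genes then called higher and lower were 22.8% and 21% in Th17p and 15.4% and 15.7% in Th17n. On that scale 24 histone genes were lower and 1 higher in Th17p, and 19 and 1 in Th17n. Without any 1 library the number called in either direction was 19 to 23 in Th17p and 13 to 17 in Th17n. Without well columns 1 and 10 22 were lower and 1 higher in Th17p, and 18 and 1 in Th17n.

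These 2 comparisons share no library. There were 12 genes lower in both, which is 60% of the 20 and 75% of the 16. Over all genes 358 were lower in both, 28.2% of those lower in Th17p and 49.5% of those lower in Th17n. The 12 were the H1 genes Hist1h1b and Hist1h1e, the H2A genes Hist1h2ag and Hist1h2ai, the H2B genes Hist1h2bj, Hist1h2bk and Hist1h2bm, the H3 genes Hist1h3c and Hist1h3d, and the H4 genes Hist1h4b, Hist1h4c and Hist1h4i. Of their promoters 10 of 12 held CCAAT, 5 TATAAA and 2 ATTTGCAT, shares of 83.3%, 41.7% and 16.7%.

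Of the 5 H1 genes, 2 were lower in each cell type. Hist1h1b encodes H1.5, and 96.1% of its 31-base words are its own. In Th17p Div.1 cells it was at 12.25, 10.36, 9.70 and 11.19 TPM with DMSO and at 6.12, 7.33, 8.41, 5.64 and 6.17 with EGCG. The change was -0.62 ± 0.152 (adjusted p = 0.000459). In Th17n Div.1 cells it was at 18, 15.95, 13.60 and 12.67 TPM with DMSO and at 7.99, 8.83, 8.99, 6.81 and 10.70 with EGCG, a change of -0.73 ± 0.152 (adjusted p = 8.43e-05). Every EGCG library lay below every DMSO library in both. Hist1h1e, which encodes H1.4, fell by 0.51 ± 0.14 and 0.54 ± 0.14 on the log2 scale (adjusted p = 0.00192 and 0.0016), from means of 19.3 and 23.8 TPM to 13.2 and 16.1, also without overlap.

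Of the 18 H2A genes 3 were lower in Th17p and 5 in Th17n. Hist1h2ag was at 122.89, 107.72, 129.12 and 113.96 TPM in the Th17p Div.1 DMSO libraries and at 47.34, 70.30, 40.77, 25.15 and 59.07 with EGCG, a change of -1.35 ± 0.196 (adjusted p = 3.87e-08). In Th17n Div.1 it was at 92.03, 114.80, 97.55 and 110.71 with DMSO and at 68.88, 57.14, 61.03, 60.25 and 53.13 with EGCG, a change of -0.78 ± 0.196 (adjusted p = 0.00119). Neither pair of groups overlapped, and no library left out ended either call. Its words are 20.2% its own. Hist1h2ai fell by 1.48 ± 0.272 (adjusted p = 6.17e-06) and 0.72 ± 0.272 (adjusted p = 0.0324). Only 8.0% of its words are its own, and in Th17n its call was lost without any of 4 libraries, at adjusted p between 0.0608 and 0.136. Hist1h2ae fell in Th17p by 0.80 ± 0.194 (adjusted p = 0.000481). In Th17n Hist1h2ah, from 15.3 ± 0.985 TPM (SD, n = 4) to 6.16 ± 1.94 (n = 5), fell by 1.23 (adjusted p = 0.00549). Hist1h2ac fell there by 1.23 (adjusted p = 0.0246), a call lost without DMSO replicate 3 (0.0817) or EGCG replicate 4 (0.0548) or 5 (0.121), and Hist2h2ab, near the detection threshold, by 0.78 (0.0183, and 0.0745 without DMSO replicate 4).

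The 2 most abundant members did not pass the test in Div.1 cells. Hist1h2ap changed by -0.21 (adjusted p = 0.453) and -0.44 (0.0979) and Hist1h2ao by -0.16 (0.398) and -0.20 (0.331) in Th17p and Th17n Div.1 cells. In Th17p Div.1 cells Hist1h2ao was at 869.58, 883.47, 913.72 and 842.41 TPM with DMSO and at 837.24, 765.50, 742.28, 797.92 and 775.04 with EGCG. The EGCG libraries were all below the DMSO libraries, the closest at 837.24 and 842.41. Whether these genes differ from the other members in their response was not tested.

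Of the 14 H2B genes 5 were lower in Th17p and 4 in Th17n. Hist1h2bj, the neighbour of Hist1h2ag, was at 71.68, 75.02, 70.72 and 72.90 TPM with DMSO and at 31.38, 34.95, 33.79, 25.10 and 24.37 with EGCG in Th17p Div.1 cells. The change of -1.27 ± 0.141 (adjusted p = 1.35e-11) had the smallest p of any member there. Th17n Div.1 libraries had it at 90.04, 70.62, 71.81 and 81.32 and at 38.62, 36.30, 46.51, 37.90 and 49.74, a change of -0.90 ± 0.141 (adjusted p = 4.72e-07). The groups were far apart in both cell types. Hist1h2bk fell by 0.82 ± 0.173 in Th17p (adjusted p = 6.09e-05) and by 0.44 ± 0.173 in Th17n (0.0399), where the groups overlapped and the call was lost without any of 4 libraries (0.0693 to 0.158). Hist1h2bm fell by 1.00 ± 0.267 (0.00136) and by 0.70 ± 0.267 (0.035), the latter lost without any of 6 libraries (0.0585 to 0.15). In Th17p Hist1h2bn fell by 1.15 (0.000309) and Hist1h2bh by 1.03 (0.015), and in Th17n Hist1h2bb by 0.85 (0.0293), lost without any of 5 libraries (0.0506 to 0.173). Hist1h2bc went the other way in Th17n, from 1.21 ± 0.396 TPM (SD, n = 4) to 3.75 ± 1.73 (n = 5), a change of 1.03 (0.025). That call was lost without DMSO replicate 4 (0.0812) or EGCG replicate 4 (0.0774) or 5 (0.0567).

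Of the 11 H3 genes 5 were lower in Th17p and 2 in Th17n. Hist1h3c was at 47, 59.59, 47.45 and 40.89 TPM with DMSO and 21.62, 23.92, 28.01, 13.42 and 23.12 with EGCG in Th17p Div.1 cells, a change of -1.14 ± 0.19 (adjusted p = 8.9e-07). In Th17n it was at 47.45, 40.24, 49.27 and 38.51 and at 31, 28.36, 29.16, 31.34 and 22.20, a change of -0.61 ± 0.19 (0.00869). Neither pair overlapped. Hist1h3d fell by 1.15 ± 0.399 in Th17p (0.0149), lost without DMSO replicate 3 (0.0541) or EGCG replicate 4 (0.0606), and by 1.46 ± 0.399 in Th17n (0.00287), where 2 EGCG libraries were listed at 0 and another, at 6.91 TPM, was as high as the highest DMSO library. In Th17p Hist1h3e fell by 1.05 (0.000313), Hist1h3g by 0.87 (0.0158, lost without DMSO or EGCG replicate 2 at 0.0664 and 0.0566) and Hist1h3f by 0.72 (0.0216, lost without DMSO replicate 5 or EGCG replicate 3 at 0.12 and 0.106). The abundant Hist2h3c2 changed by -0.48 (adjusted p = 0.0997) and -0.47 (0.127), and Hist2h3b by -0.19 (0.7) and -0.71 (0.119).

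Of the 13 H4 genes 5 were lower in Th17p and 3 in Th17n. Hist1h4i was at 72.82, 80.02, 60.98 and 53.95 TPM with DMSO and at 45.37, 50.19, 45.17, 43.56 and 46.06 with EGCG in Th17p Div.1 cells, a change of -0.51 ± 0.12 (adjusted p = 0.000284). In Th17n it was at 46.93, 40.82, 52.01 and 49.61 and at 39.42, 27.23, 28.34, 18.71 and 30.22, a change of -0.73 ± 0.12 (1.28e-06). The DMSO libraries were above the EGCG libraries in both. Hist1h4c fell by 0.90 ± 0.311 (0.0134, and 0.0513 without EGCG replicate 5) and by 1.24 ± 0.311 (0.00108). Hist1h4b fell by 1.06 ± 0.374 (0.0158, and 0.0506 without EGCG replicate 4) and by 1.45 ± 0.374 (0.00155). In Th17p Hist1h4d fell by 0.69 (0.03), lost without any of 4 libraries (0.0545 to 0.0759). Hist1h4a, at 1.34 TPM with DMSO, fell by 1.01 (0.03), lost without any of 6 (0.0531 to 0.111). Of all 61 genes, 21 had EGCG and DMSO libraries that did not overlap in Th17p Div.1 cells and 17 in Th17n Div.1 cells, against 38.7% and 27.4% of all genes, shares to which the members were close.

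**Figure D3:**
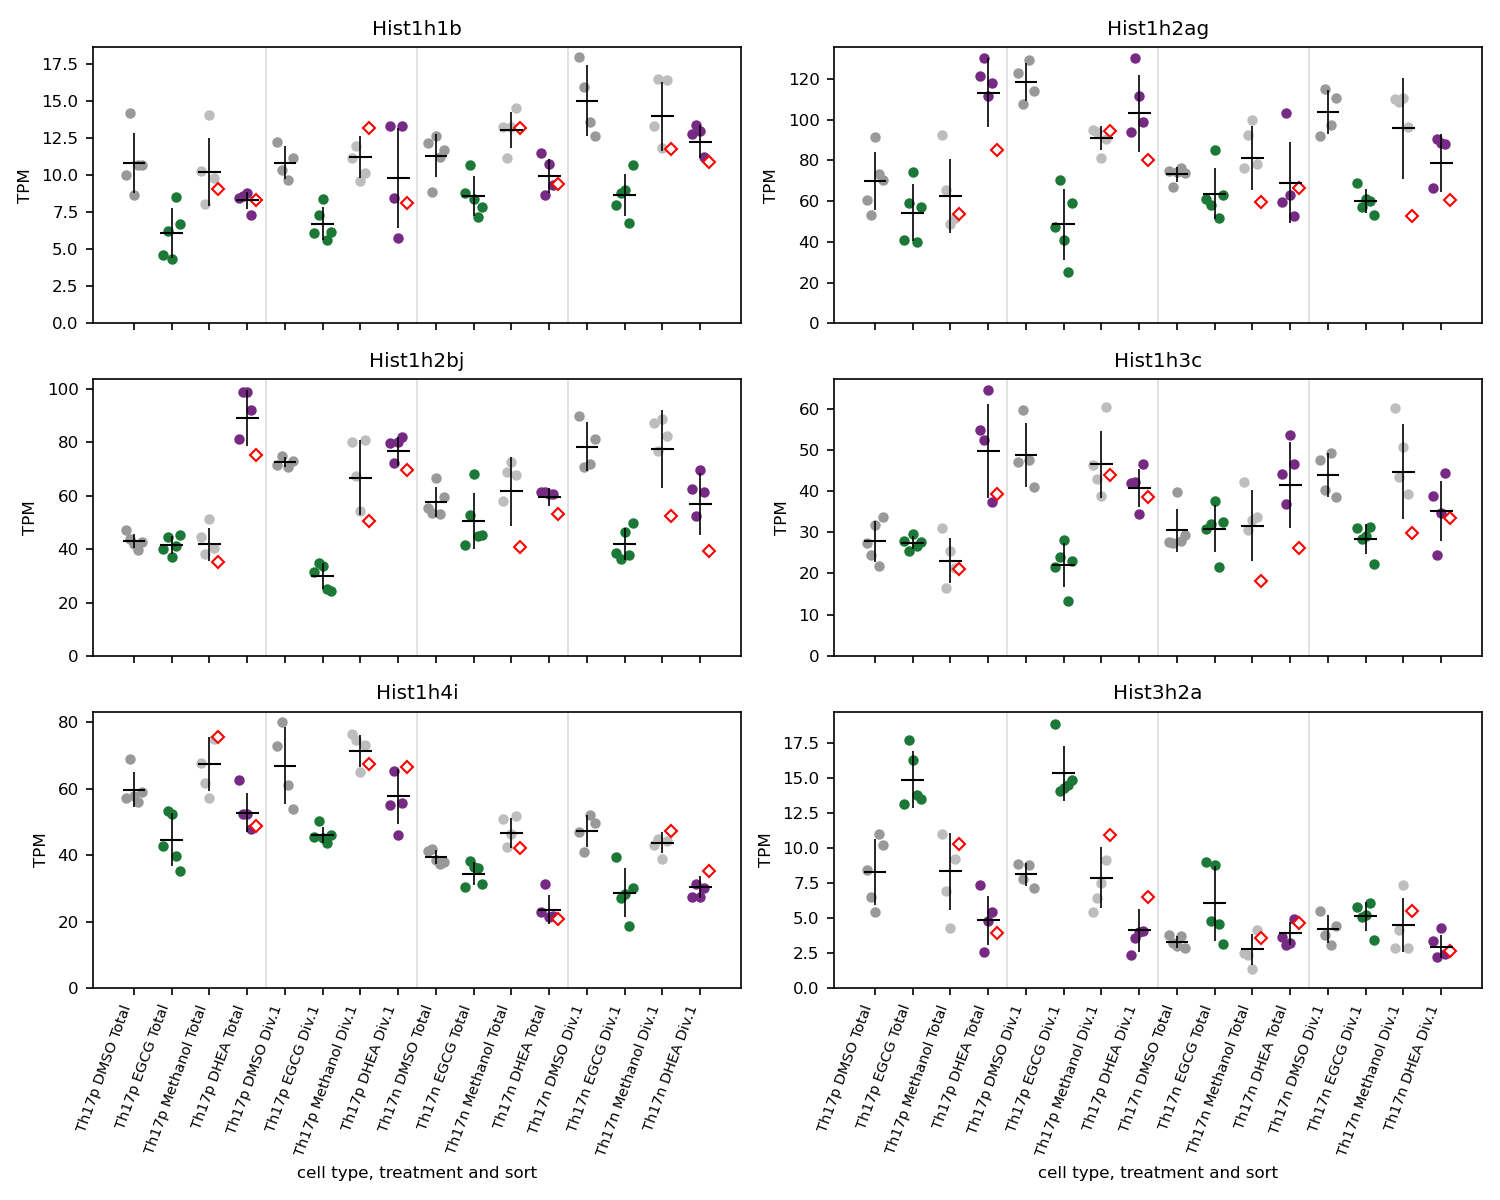
TPM in every library of the 16 groups for Hist1h1b, Hist1h2ag, Hist1h2bj, Hist1h3c, Hist1h4i and Hist3h2a. Points are libraries, bars the group mean ± SD, grey the solvents, green EGCG and purple DHEA; the EGCG libraries of Hist1h2ag, Hist1h2bj and Hist1h3c lie below their DMSO libraries in both Div.1 groups, and those of Hist3h2a above them in Th17p.

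Other short transcripts were set beside the histone genes, whose transcripts are short. The 170 other genes whose longest coding transcript was at most 700 bases changed with EGCG by a median of 0.16 in Th17p Div.1 and 0.06 in Th17n Div.1 cells. Among the 23 histone genes with more than 50% of their words unique, 9 were lower and 1 higher in Th17p Div.1 (median -0.45) and 8 lower and 1 higher in Th17n Div.1 (median -0.47).

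In unsorted cells histone genes were called in both directions with EGCG. In Th17p Total cells 9 histone genes were lower, against 14.9% of all genes, and 4 higher, against 30.1%, with a median of -0.24 against 0.09. The share lower was close to that of all genes, and the share higher was below it. Among the lower were Hist1h1b (-0.76 ± 0.143, adjusted p = 9.95e-06), from 10.9 ± 2.04 to 6.09 ± 1.70 TPM (SD, n = 5), and Hist1h1e (-0.65 ± 0.132, 3.27e-05), from 21.4 ± 2 to 13.3 ± 1.85. Both H1 genes were lower in every EGCG library than in any DMSO library. Hist1h2ao, at 1012.38, 992.13, 1062.68, 958.84 and 948.14 TPM with DMSO, was at 726.28, 660.46, 679.43, 772.04 and 672.13 with EGCG (-0.50 ± 0.142, 0.00261). It was called in this comparison only among the compound comparisons, and its call was kept without any 1 library. Hist1h4i (-0.42, 0.00152), Hist4h4 (-0.94, 0.000322) and Hist1h3d (-1.95, 1.53e-05) were also lower. Hist1h3d fell from 4.89 ± 1.24 TPM (SD, n = 5) to 1.46, 0.96 and 0.57 in 3 libraries and was listed at 0 in 2. The calls of Hist2h3c2 (-0.57, 0.0339), Hist2h3b (-0.80, 0.0474) and Hist1h2an (-1.09, 0.0152) were lost without any of 5 libraries (0.0603 to 0.0854), any of 7 (0.0616 to 0.109), and DMSO replicate 4 (0.075) or EGCG replicate 1 (0.0556).

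The genes higher in Th17p Total cells with EGCG were all but 1 H2A genes. Hist1h2ai was at 7.45, 5.76, 5.62, 11.48 and 1.57 TPM with DMSO and at 16.31, 12, 23.84, 22.70 and 26.34 with EGCG, a change of 1.65 ± 0.256 (adjusted p = 1.78e-07), without overlap. Hist3h2a rose by 0.80 ± 0.22 (0.00204), Hist2h2aa1 by 1.21 ± 0.328 (0.00175) and the H4 gene Hist1h4h by 0.85 ± 0.331 (0.0304). The call of Hist1h4h was lost without DMSO replicate 2 (0.113) or 5 (0.0729) or EGCG replicate 4 (0.088). A fit on these 2 groups alone called 20 members, 16 lower and 4 higher.

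In Th17n Total cells 3 histone genes were lower with EGCG, against 13.5% of all genes, and 1 higher, against 21.7%. The median change was -0.03, against 0.05. The lower genes were Hist1h1b (-0.36, adjusted p = 0.0394), Hist1h3d (-1.09, 0.0183) and Hist1h4n (-0.86, 0.0421), and the higher was Hist3h2a (0.63, 0.0203). Each of the 4 calls was lost without 1 of at least 2 libraries. The number called was 1 without EGCG replicate 3 or DMSO replicate 3, and 2 without EGCG replicate 1, DMSO replicate 1 or DMSO replicate 4.

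The difference in the EGCG response between sorts was tested as an interaction. In Th17p it was called for 8 histone genes, against 2.57% of all genes in either direction, and in all 8 the response in Div.1 was lower than in Total. They were Hist1h2ai (-3.12 ± 0.374, adjusted p = 2.13e-08), Hist1h2bj (-1.21 ± 0.193, 3.54e-05), Hist1h3c (-1.13 ± 0.261, 0.00747), Hist1h2bk (-0.97, 0.0122), Hist1h3e (-1.28, 0.0232), Hist1h2ag (-0.97, 0.0299), Hist1h4a (-1.85, 0.0461) and Hist1h2bn (-1.25, 0.0485). The count was 4 without EGCG Total replicate 5, and 5 without DMSO Total replicate 3, EGCG Total replicate 2 or 3, or DMSO Div.1 replicate 2 or 3. In Th17n the interaction was called for 4, against 13.3% of all genes, again all lower in Div.1: Hist1h2bj (-0.69 ± 0.193, 0.00961), Hist1h4i (-0.54 ± 0.165, 0.0197), Hist1h2bb (-1.43 ± 0.432, 0.0177) and Hist1h4c (-1.23 ± 0.427, 0.0424). The count was 2 without EGCG Div.1 replicate 2 or DMSO Div.1 replicate 1. In the direction of these calls, lower in Div.1, the shares of all genes were 1.22% in Th17p and 2.53% in Th17n. At an unadjusted p under 0.05 the members lower by this test were 14 in Th17p and 15 in Th17n. The shares of all genes at that threshold are not given here, so these 2 counts cannot be read against the shares above.

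The EGCG response was also compared between the cell types. In Total cells the interaction was called for 2 members, against 19.9% of all genes: Hist1h2ai (1.84, adjusted p = 9.63e-05) and Hist1h1e (-0.62, 0.0108). In Div.1 cells it was called for 0 of 61, against 17.5% of all genes, with 1 member at an unadjusted p under 0.05. A p above the threshold does not show that the responses were the same.

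With DHEA the histone genes that passed the test in Th17p Total cells were mostly higher. There 14 histone genes were higher than with Methanol, against 20.9% of all genes, and 2 lower, against 26.8%. The share higher was close to that of all genes, and the share lower was well below it. The median change was 0.17, against -0.02. The 14 were 3 H2A, 6 H2B, 3 H3 and 2 H4 genes, and no H1 gene was called. Hist1h2bj was at 44.41, 38, 51.18, 40.28 and 35.16 TPM with Methanol and at 81.34, 98.85, 98.72, 92.06 and 75.33 with DHEA, a change of 1.08 ± 0.133 (adjusted p = 2.43e-10). Hist1h3c was at 31, 16.52, 25.49, 21.35 and 20.98 and at 54.75, 52.46, 64.54, 37.29 and 39.36, a change of 1.07 ± 0.179 (6.73e-07). The DHEA libraries were above the Methanol libraries for both. Hist1h2ag rose by 0.88 ± 0.185 (5.67e-05), from 62.4 ± 18 to 113 ± 17.1 TPM (SD, n = 5), with DHEA replicate 10 (85.04) below the highest Methanol library (92.65). Hist1h2bg rose by 1.31 (0.00118), Hist1h2bn by 1.17 (8.54e-05), Hist1h2bb by 1.17 (0.00071), Hist1h3d by 1.09 (0.0128), Hist1h2ai by 0.99 (0.000861) and Hist1h2ae by 0.55 (0.01). The summed level of all 61 did not follow these genes: it was 1896 to 2901 TPM with Methanol and 1567 to 2787 with DHEA, with Hist1h2ap and Hist1h2ao changing by -0.24 (0.347) and -0.30 (0.0746). The summed H2B genes were at 104 ± 7.2 and 190 ± 22.3 TPM (SD, n = 5).

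Of the weaker calls in Th17p Total cells, Hist1h2bk (0.45, adjusted p = 0.0188) was lost without Methanol replicate 6 (0.0887) or DHEA replicate 6 (0.0876) or 8 (0.0642). Hist1h4b (0.94, 0.0225) was lost without Methanol replicate 6 (0.077) or 10 (0.0509) or DHEA replicate 8 (0.105), and Hist1h4n (0.92, 0.0202) without Methanol replicate 6 (0.0504) or 10 (0.0638) or DHEA replicate 9 (0.0579). Lower with DHEA were Hist1h4i (-0.34, 0.00894) and Hist3h2a (-0.67, 0.00858), the latter lost without DHEA replicate 7 (0.0578). Without well column 10 there were 15 calls, 13 higher and 2 lower, and those of Hist1h4i, Hist1h4n and Hist3h2a were lost. Libraries with DHEA and Methanol did not overlap for 7 members, against 33.8% of all genes.

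In Th17p Div.1 cells DHEA left few histone genes past the threshold: 3 were lower, against 19.2% of all genes, and 1 higher, against 18.1%. They were Hist3h2a (-0.81, adjusted p = 0.00241), Hist1h4i (-0.31, 0.0249), Hist1h3d (-1.08, 0.0181) and, higher, Hist4h4 (0.58, 0.0317). The call of Hist3h2a alone was kept without every library in turn. Without well column 10 there were 7 calls, 5 lower and 2 higher. Hist1h3d was lost without DHEA replicate 6 (0.113) or Methanol replicate 9 (0.0703), and Hist4h4 without any of 4 libraries (0.0511 to 0.172). In Th17n Total cells 4 were lower, against 25.3%, and 1 higher, against 20.8%. Hist1h4i, at 50.87, 42.53, 46.50, 51.84 and 42.19 TPM with Methanol and 22.85, 31.23, 21.37, 21.80 and 20.78 with DHEA, fell by 0.97 ± 0.113 (6.26e-11) without overlap. The other lower genes were Hist1h1b (-0.37, 0.0299), Hist2h2ac (-0.53, 0.0351) and Hist1h2ah (-0.91, 0.023), and the higher was Hist2h2aa1 (0.91, 0.0176), and each of these 4 calls was lost without any of 2 to 5 libraries (0.0532 to 0.111). After rescaling 2 members were lower and 2 higher there. The number called was 10 without Methanol replicate 10, 3 without Methanol replicate 8 and 2 without Methanol replicate 9, and 9 without well column 10. In Th17n Div.1 cells 5 were lower, against 14.6%, and 0 higher, against 22.1%, with 0 higher at an unadjusted p under 0.05 too. They were Hist1h4i (-0.52, 0.000189), Hist1h2bk (-0.66, 0.000876), Hist1h2ae (-0.66, 0.00284), Hist1h2bj (-0.44, 0.00673) and Hist1h3g (-0.73, 0.041). The call of Hist1h2bj was lost without DHEA replicate 10 (0.0638) and that of Hist1h3g without any of 4 libraries (0.0508 to 0.34). The number was 14 without Methanol replicate 10 and 3 without DHEA replicate 10, and 8 without both.

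**Figure D4:**
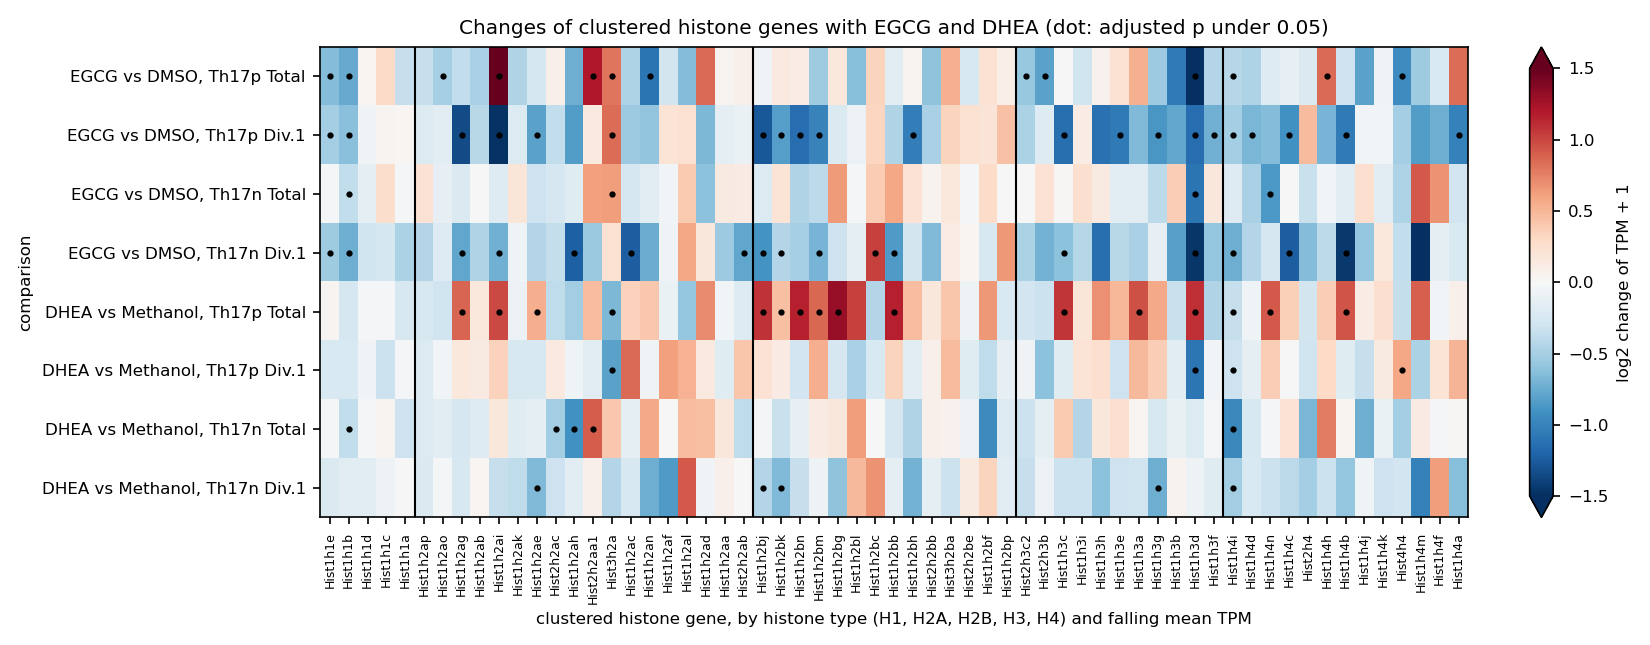
Change of each of the 61 genes (columns, by histone type) with each compound against its solvent (rows) as a difference of mean log2(TPM + 1), on a colour scale that ends at ±1.5. Dots mark an adjusted p under 0.05. The rows for EGCG in Div.1 cells hold 20 and 16 lower calls, and the row for DHEA in Th17p Total cells 14 higher ones.

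The DHEA response of Th17p cells differed between sorts for 7 members, against 9.91% of all genes. It was lower in Div.1 for 6, among them Hist1h3c (-1.25 ± 0.253, adjusted p = 0.000497), Hist1h2bj (-0.86 ± 0.188, 0.00138), Hist1h2bn (-1.46, 0.00458) and Hist1h3d (-2.17, 0.00424), and higher for Hist4h4 (0.94, 0.0429). The count was 4 without Methanol Div.1 replicate 6. In Th17n it was called for 0, against 6.79%, with 8 at an unadjusted p under 0.05. Without 1 library it was 0 to 2, with 2 without Methanol Div.1 replicate 10. Between cell types it differed in Total for 7 members, against 14.8%. It was higher in Th17p for 6, led by Hist1h2bj (1.10 ± 0.188, 1.21e-05) and Hist1h2ag (1.13 ± 0.262, 0.00113), and lower for Hist3h2a (-1.08 ± 0.312, 0.0103). In Div.1 it differed for 4, against 15.9%, all higher in Th17p: Hist1h2bj (0.66), Hist1h2bk (0.78), Hist1h2af (1.47) and Hist4h4 (0.87). That count was 1 without Th17n DHEA replicate 10 and 2 without 1 of 5 other libraries: Th17n Methanol replicate 6 or 7, Th17n DHEA replicate 7, Th17p Methanol replicate 6 or Th17p DHEA replicate 9.

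Cells that had divided once were compared with unsorted cells in the solvents. These comparisons share the solvent libraries with those above, so they are set beside them and not counted as separate support. In Th17p 9 histone genes were higher in Div.1, against 8.63% of all genes, and 0 lower, against 10.8%, with 1 lower at an unadjusted p under 0.05. In Th17n 7 were higher, against 5.80%, and 1 lower, against 16.1%. Hist1h2bj was higher by 0.69 ± 0.0967 in Th17p (adjusted p = 1.34e-07) and by 0.38 ± 0.0967 in Th17n (0.00197). Hist1h3c was higher by 0.89 ± 0.13 (4.22e-07) and 0.51 ± 0.13 (0.00235), and Hist1h2bk by 0.69 ± 0.119 (1.33e-05) and 0.50 ± 0.119 (0.00113). In DMSO libraries of Th17p cells Hist1h2bj was at 39.84 to 47.30 TPM in Total and 70.72 to 75.02 in Div.1. In Th17p the others were Hist1h2ai (1.38), Hist1h2bn (0.80), Hist1h2ag (0.67), Hist1h2ae (0.66), Hist1h2bm (0.55) and Hist1h3e (0.54). The call of Hist1h3e was lost without DMSO Total replicate 3 (0.0699) and that of Hist1h2bm without any of 4 libraries. In Th17n the others higher were Hist2h2aa1 (0.84), Hist1h4b (0.75), Hist1h4h (0.66) and Hist1h1e (0.34). There Hist1h4b was lost without any of 3 libraries and Hist1h4h without any of 7. Hist1h2bc was lower by 0.94 (0.00401), and the number called was 18 without Methanol Div.1 replicate 10 and 16 without well column 10.

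Between cell types in the solvents, 10 histone genes were lower in Th17p than in Th17n Total cells, against 26.5% of all genes, and 3 higher, against 30.9%. In Div.1 cells 10 were lower, against 25.7%, and 4 higher, against 34.9%. Higher in Th17p in both sorts were Hist1h4i (0.55 ± 0.0802, adjusted p = 1.43e-08, and 0.59 ± 0.0851, 1.1e-08), Hist3h2a (1.18 ± 0.156, 7.84e-10, and 0.77 ± 0.165, 4.54e-05) and the low Hist2h2be (0.40 and 0.49). Lower in Total were Hist1h2ai (-1.25, 1.26e-08), Hist1h2bj (-0.47, 1.4e-05) and Hist1h2bm (-0.78, 0.000128), and in Div.1 Hist2h3c2 (-0.53, 0.006), Hist1h2ab (-0.55, 0.00149) and Hist1h1b (-0.36, 0.00311). In Div.1 Hist1h2ac (-0.997, 0.00473) and Hist1h2bc (0.82, 0.00536), which start 250 bases apart, were called in opposite directions.

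Single members differed in how they moved over the comparisons. Hist1h4i was lower with the compound in 7 of 8 comparisons, with EGCG in Th17n Total cells (-0.19, adjusted p = 0.186) the exception. Its call with DHEA in Th17p Div.1 cells was lost without Methanol replicate 6 (0.0585) or 7 (0.0519) or DHEA replicate 8 (0.12). Hist1h1b and Hist1h3d were lower in all 4 EGCG comparisons, and 31 of the 61 in none. Hist3h2a, the solitary H2A gene of the Hist3 cluster with a 2146-base model running 1643 bases past its stem-loop, was higher with EGCG in 3 comparisons and lower with DHEA in both Th17p comparisons. In Th17p Div.1 cells it was at 8.86, 7.81, 8.78 and 7.17 TPM with DMSO and at 18.88, 14.13, 14.34, 14.51 and 14.90 with EGCG, a change of 0.83 ± 0.234 (0.0024), without overlap. With Methanol and DHEA there it was at 7.91 ± 2.19 and 4.14 ± 1.52 TPM (SD, n = 5). Of the 31-base words of Hist3h2a 67.9% are its own and 32.1% are shared with Trim17, which is not a histone gene. Whether reads of Trim17 take part in the level of Hist3h2a was not tested.

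Of the 10 head-to-head pairs, both genes were called in 2 pairs with EGCG in Th17p Div.1 cells and in 3 in Th17n Div.1 cells. Only 1 gene was called in 4 pairs and in 1 pair. Of all members 34.4% and 27.9% were called there in either direction. Whether paired genes were called together more often than other members was not tested. Hist1h2ag and Hist1h2bj were lower together in both, by 1.35 and 1.27 and by 0.78 and 0.90. In Th17p the second pair was Hist1h2bh and Hist1h3f, both lower. In Th17n Hist1h2ah and Hist1h2bk were lower together, while Hist1h2ac was lower and its neighbour Hist1h2bc higher. With DHEA in Th17p Total cells Hist1h2ag and Hist1h2bj, and Hist1h2ae and Hist1h2bg, were higher together. In 3 other pairs only 1 gene was called there, and 26.2% of all members were called. In the other 5 compound comparisons no pair had both genes called.

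Genes that act with the clustered histones were set beside them as lists, by counts only. In the EGCG comparisons of Div.1 cells, the shares of all genes to read them against are those given above, 33.7% higher and 11.9% lower in Th17p and 28.1% and 6.77% in Th17n. Slbp, named for its role, was at 171 ± 15.8 TPM (SD, n = 4) with DMSO and 166 ± 4.27 (n = 5) with EGCG in Th17p Div.1 cells (change -0.04, adjusted p = 0.668) and at 177 ± 12 and 188 ± 14.2 in Th17n Div.1 (0.09, 0.243). In Th17p Total cells it fell from 200.1 ± 11.3 to 162.3 ± 8.2 (SD, n = 5), a change of -0.30 (5.86e-06). Of the 21 genes listed for histone gene transcription and 3′ end processing, 7 were higher and 2 lower with EGCG in Th17p Div.1 and 6 higher and 0 lower in Th17n Div.1. The shares higher were close to those of all genes, so the list did not stand out from them. Among its genes with the smallest p, Lsm1 (0.26 and 0.23) and Zcchc6 (0.41 and 0.32), which take part in the decay of histone mRNA, were higher in both. Npat, the coactivator of histone gene transcription, was higher in Th17n Div.1 (0.32, 0.00619). With EGCG in Th17p Total cells 4 were higher and 5 lower, against 30.1% and 14.9% of all genes. In Th17n Total cells 3 were higher and 2 lower, against 21.7% and 13.5%. Of 16 genes of general polyadenylation, 2 were higher and 3 lower in Th17p Div.1 and 5 and 0 in Th17n Div.1. The share higher was below that of all genes in Th17p and close to it in Th17n.

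Histone variants that are made also outside S phase come from genes named apart from the clustered ones, mostly with polyadenylated mRNAs, which the capture retains. Of 10 such genes tested, 7 were higher and 2 lower with EGCG in Th17p Div.1, with a median of 0.27, and 4 higher and 0 lower in Th17n Div.1, with a median of 0.01. H3f3b, which encodes H3.3, was higher by 0.39 ± 0.0454 (adjusted p = 5.04e-11) and 0.31 ± 0.0454 (8.27e-08). H2afy2, a macroH2A gene, was higher by 0.99 and 0.82. H1f0, a linker histone, was higher in Th17p Div.1 (1.67, 5.95e-10), while in Th17n Div.1 its change was -0.13 (0.683). With DHEA in Th17p Total 2 variants were higher and 4 lower, against 20.9% and 26.8% of all genes.

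Of 19 histone chaperones 2 were higher and 10 lower with EGCG in Th17p Div.1 and 3 and 4 in Th17n Div.1. Nasp, a carrier of H3 and H4, changed by -0.30 (adjusted p = 5.78e-09) in Th17p Div.1 and -0.07 (0.154) in Th17n Div.1. Asf1a was higher by 1.24 in the first and lower by 0.46 in the second (5.43e-08 and 0.044). Of 30 DNA replication genes 6 were higher and 14 lower in Th17p Div.1, with a median of -0.12, and 7 and 5 in Th17n Div.1, with a median of 0.02. The shares lower were above those of all genes in both, and the share higher in Th17n was somewhat below. Mcm7, of the replicative helicase, changed by -0.54 and -0.33. Of 23 genes of G2 and M phase 20 were lower in Th17p Div.1 and 11 in Th17n Div.1, and 0 higher in either, with medians of -0.50 and -0.19. With DHEA in Th17p Total cells, where 14 clustered histone genes were higher, 13 of the 30 replication genes were lower and 3 higher, and 18 of the 23 G2 and M phase genes lower, against 26.8% of all genes lower and 20.9% higher. The part of cell cycle phase in the histone levels was not tested.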

How the data were processed

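The authors deposited 1 table of TPM for 79 libraries of poly(A)-captured RNA. Per the submitters' processing notes, Trimmomatic, kallisto and mm10 were used; versions and settings are not given in the sources used here. TPM per library summed to 880077 to 895017, and 78 libraries were used. Depth is unknown.

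Genes at 1 TPM or more in at least 4 libraries (10672) were tested with limma 3.58.1 (R 4.3.3) on log2(TPM + 1). A single model held the 16 group means, with moderated variances and a mean-variance trend, and p-values were Benjamini-Hochberg adjusted over all genes tested. There were 20 comparisons, 8 of them interactions. Tests, including those with fewer than 10 libraries a group, are limma's. On simulated shifts of 0.5 and 1 in 100 genes each, for EGCG against DMSO in Th17p Total cells over 10672 genes, 78% and 96% were recovered, and 3.33% of calls were false.

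Members and lists were chosen with earlier results of these data known. Members with a mean of 10 TPM or more, or called with a log2 change of at least 1, are given with values, and of each list at most 4 genes a comparison, by smallest p, apart from Slbp. Alternatives were a pseudocount of 0.1, no filter, rescaling by the median ratio, a fit on the groups compared, a replicate block, well A4 in its labelled group, no well columns 1 and 10, and each library left out. Leaving out well column 10 alone was chosen after seeing the data. Stem-loops and shared 31-base words came from GENCODE models, and promoters from RefSeq (GRCm38.p6). Python 3.11.15, pandas 2.3.3, numpy 2.4.6 and matplotlib 3.10.9 were used. Some marker genes are not reported here.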

Additional observations from a re-analysis of the deposited data

Results flagged for a closer look

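Summed histone levels were searched for single libraries far from the rest of their group, over 112 sets of 4 or 5 libraries (7 sums in 16 groups). There were 22 such results, 16 of them for libraries of well column 10. The sums share genes and libraries, so 1 library can be counted several times. Chance gives about 1 in 20 for a single set, and the sets are not independent. For all 61 genes replicate 10 was low at 1567 TPM in Th17p DHEA Total (nearest library 2439), 1473 in Th17n Methanol Div.1 (3232) and 1486 in Th17n DHEA Div.1 (2704). Without Hist1h2ao and Hist1h2ap it was at 631 in Th17p DHEA Total (909) and 551 in Th17n Methanol Div.1 (1097). For H2A genes it was at 1116 in Th17p DHEA Total (1785), 1070 in Th17n Methanol Div.1 (2404) and 1129 in Th17n DHEA Div.1 (2098). H2B genes summed to 91.3 in Th17p Methanol Total (105), 111 in Th17n Methanol Total (151) and 113 in Th17n Methanol Div.1 (183). H3 genes summed to 165 in Th17p DHEA Total (285), 145 in Th17n Methanol Total (308) and 159 in Th17n Methanol Div.1 (411). H4 genes summed to 123 in Th17p Methanol Total (146) and 92.3 in Th17n Methanol Div.1 (167).

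The other 6 results were for libraries that were high in their groups. For all 61 genes they were Th17p EGCG Div.1 replicate 2 at 2470 TPM (2304) and Th17n EGCG Div.1 replicate 1 at 2926 (2644), which also had the highest H2A sum, 2364 (2061). Without Hist1h2ao and Hist1h2ap it was Th17n DMSO Div.1 replicate 1 at 1197 (1119). For H1 genes they were Th17p EGCG Total replicate 4 at 39 (32) and Th17p DHEA Div.1 replicate 6 at 42.9 (37.8).

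Responses that differed between sorts or cell types by limma's interaction term, in log2(TPM + 1), numbered 32. Between Div.1 and Total cells the EGCG response of Th17p differed for Hist1h2ag (-0.974), Hist1h2bj (-1.215), Hist1h2bk (-0.968), Hist1h3c (-1.132), Hist1h2ai (-3.123), Hist1h2bn (-1.253), Hist1h3e (-1.278) and Hist1h4a (-1.849). In Th17n it differed for Hist1h2bj (-0.692), Hist1h4i (-0.537), Hist1h4c (-1.232) and Hist1h2bb (-1.429). The DHEA response of Th17p differed between sorts for Hist1h2bj (-0.858), Hist1h3c (-1.252), Hist1h2ae (-0.791), Hist1h2bn (-1.455), Hist1h2bg (-1.569), Hist1h3d (-2.175) and Hist4h4 (0.937). Between Th17p and Th17n the EGCG response in Total cells differed for Hist1h2ai (1.838) and Hist1h1e (-0.623). The DHEA response in Total cells differed for Hist1h2ag (1.126), Hist1h2bj (1.104), Hist1h4i (0.623), Hist1h2bk (0.783), Hist1h2bn (1.294), Hist3h2a (-1.081) and Hist1h2bb (1.422). In Div.1 cells it differed for Hist1h2bj (0.659), Hist1h2bk (0.777), Hist1h2af (1.468) and Hist4h4 (0.873).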

How the results depend on the processing

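Of 90 named changes 61 kept their call under every alternative, 25 lost it under at least 1 of 8 settings, 24 without at least 1 library, and 0 reversed. Counts of histone genes called that moved by more than 1.5 times follow, and the cause was not tested. Fitting only the groups compared gave 20 for EGCG in Th17p Total, 2 for DHEA in Th17p Div.1, 8 for DHEA in Th17n Total, 6 and 3 for the EGCG response by type in Total and Div.1, 11 for the EGCG response by sort in Th17n and 0 for the DHEA response by type in Div.1. With no filter the counts were 2 for EGCG in Th17n Total, 3 for DHEA in Th17n Total, 8 for Th17p against Th17n in Div.1, 5 and 4 for the EGCG and DHEA responses by sort in Th17p and 2 for the DHEA response by type in Div.1.

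Without well columns 1 and 10 they were 20 for EGCG in Th17p Total, 7 for DHEA in Th17p Div.1, 2 for EGCG and 8 for DHEA in Th17n Total, 13 for Div.1 against Total in Th17n, and 7 and 1 for the EGCG response by type in Total and Div.1. Without well column 10 they were 7 for DHEA in Th17p Div.1, 9 and 8 for DHEA in Th17n Total and Div.1, 16 for Div.1 against Total in Th17n, 6 and 1 for the EGCG response by type in Total and Div.1, and 9 and 1 for the EGCG and DHEA responses by sort in Th17n.

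Deviations of libraries that share a well column correlated at -0.002 to 0.315, with a positive median in every comparison. Libraries of different columns were not set beside them, so these values do not decide whether the numbers pair the libraries. The main model took no pairing. The replicate block gave 10 for DHEA in Th17n Total, 15 for Div.1 against Total in Th17n, 6 and 1 for the EGCG response by type in Total and Div.1, and 9 and 2 for the EGCG and DHEA responses by sort in Th17n.

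Leaving out 1 library at a time gave 1 to 4 for EGCG and 2 to 10 for DHEA in Th17n Total, 3 to 14 for DHEA in Th17n Div.1, 7 to 18 for Div.1 against Total in Th17n, 4 to 8 and 2 to 6 for the EGCG response by sort in Th17p and Th17n, 1 to 6 for the DHEA response by type in Div.1, and 4 to 8 and 0 to 2 for the DHEA response by sort in Th17p and Th17n. Shared reads limit single genes, and unknown depth limits low ones.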

Other observations

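The library of well A4 is labelled Th17n DMSO Div.1. Wells 1, 2, 3 and 5 of its row are labelled Th17p DMSO Div.1 and wells 6 to 10 Th17p Methanol Div.1. It entered no main comparison of the report and was placed in its labelled group only in 1 of the alternatives. Under that alternative 5 of the 90 named changes lost their call. The 61 histone genes of this library summed to 2823 TPM. The 4 Th17p DMSO Div.1 libraries ran from 2809 to 3028 and the 4 Th17n DMSO Div.1 libraries from 3371 to 3860.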
